A study of Mus musculus with 12 samples.

Results

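Mouse pancreatic islets that had spent 120 days in fat were compared with isolated islets that had not been grafted. The comparison used 8 of the 12 RNA-seq libraries of the series, all genes of the deposited table with an FPKM of at least 1 in at least 4 of these 8 libraries, and the log2(FPKM + 1) scale. FPKM is a fragment count scaled to gene length and to library size. Of 23234 gene symbols, 12680 were tested and 10554 were too low. The 4 isolated islet libraries and the 4 day 120 graft libraries were all labelled C57BL/6 and islet tissue. The grafts had been placed in inguinal white fat under the skin of the groin. No transgene, drug or other agent is named for either group. Sex, age, the recipient's glycaemia, the number of islets and the way a graft was cut from the fat are not given in the labels used here. The labels number the libraries without saying that they came from separate mice or islet preparations, so p-values measure the spread between these libraries, part of which may be technical.

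Islets are clusters of hormone cells. Beta cells make insulin and amylin and sense glucose through uptake by GLUT2, its metabolism and closure of the ATP-sensitive potassium channel. Alpha, delta and PP cells make glucagon, somatostatin and pancreatic polypeptide. Isolation cuts islets from their vessels, nerves and exocrine surroundings, and a graft lives on the vessels, matrix and immune cells of its new site. Insulin production loads the endoplasmic reticulum, where unfolded protein is met by chaperones such as BiP and by the transcription factors ATF6, XBP1 and ATF4.

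The isolated islets were not uniform. Isolated islet replicate 1 correlated at 0.899 to 0.902 with the other islets on log2(FPKM + 1), whereas those 3 correlated at 0.970 to 0.975 with each other. On the first principal component, which held 69.9% of the variance, replicate 1 lay at -15.5, the other islets between -72.4 and -61.9 and the grafts between 51.8 and 57.3. It was closer to the graft mean than to the mean of the other islets in 7616 of 12680 genes. Results are therefore given with all 4 islets, and without replicate 1 where that changes the call. Summed FPKM ran from 429487 to 786366 in islets and from 461655 to 481115 in grafts, and read depth is not known from FPKM. The largest sums, those of islets 3 and 4, include Ins2 values of 293150 and 316265 FPKM. Ins2 is listed at 0 in the other libraries compared.

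In all, 5816 genes (45.9%) passed limma at an adjusted p under 0.05, 4531 higher in grafts (35.7%) and 1285 lower (10.1%). Without isolated islet replicate 1, 7841 passed (61.8%), 5757 of them higher (45.4%) and 2084 lower (16.4%). The 2 groups did not overlap in 35.1% of all tested genes, and in 61.9% without islet 1. Of the 5816 genes, 5758 passed in the same direction in both. The split between directions moved with the scaling. As deposited, 77.9% of the calls were higher and the median gene changed by log2 0.28. Upper-quartile scaling gave 64.9% and 0.16, scaling to the sum left after hormone and acinar genes were removed gave 58.1% and 0.10, quantile normalization gave 51.4% and 0.02, and scaling to 20 endocrine reference genes gave 44.1% and -0.04. Small changes in 1 direction are therefore read beside 0.28. The plot of gene lists shows the share of each list that passed beside these background shares. Lists are described by their counts, with no test of a list, and a share near the background is no result about the list. A member under 1 FPKM in all 4 islets reached the filter through the grafts alone, and so had to be higher, and likewise for the reverse. Such members are counted beside the lists that hold many.

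**Figure D1:**
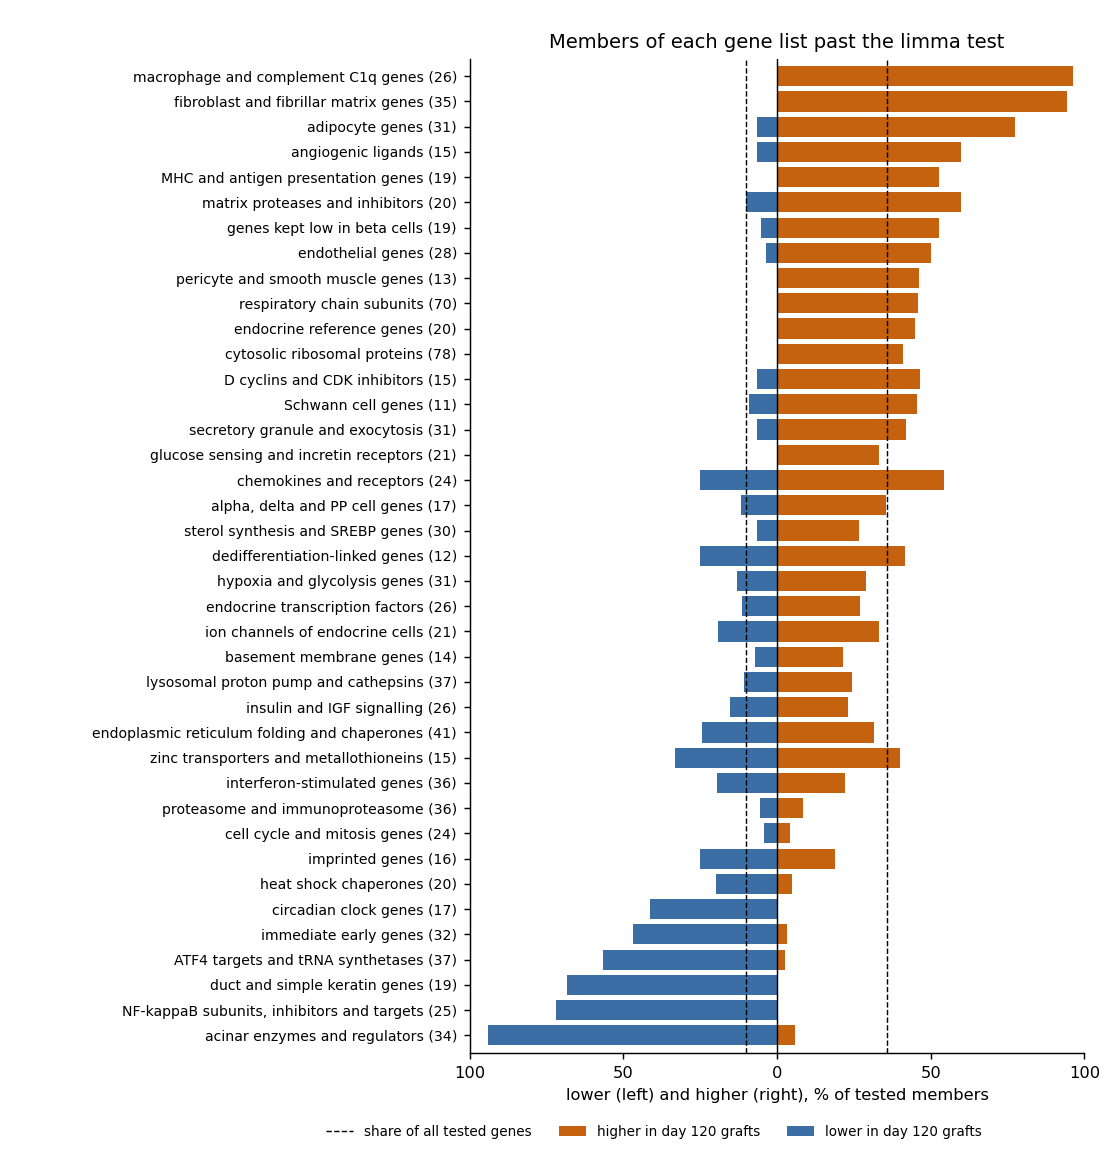
Share of the tested members of each gene list with at least 10 tested members (number in brackets) that were higher (orange, right) or lower (blue, left) in day 120 grafts, by limma at an adjusted p under 0.05. Dashed lines mark the shares of all 12680 tested genes, 35.7% higher and 10.1% lower. Macrophage, fibroblast and adipocyte lists reach farthest to the right, and acinar, NF-kappaB and duct lists farthest to the left.

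Endocrine transcripts stayed abundant in the grafts. The amylin gene Iapp stood at 26174, 20053, 17342 and 16932 FPKM in isolated islets 1 to 4 and at 40697, 45612, 41211 and 34717 FPKM in grafts 1 to 4. Every graft lay above every islet (log2 change 1.03, SE 0.157, adjusted p = 0.00114), though quantile normalization ended the call. The chromogranin gene Chga, a general granule marker of endocrine cells, was at 6335 ± 453 FPKM in islets and 5780 ± 804 in grafts (SD, n = 4) and did not pass the test (adjusted p = 0.382). It fell with scaling to the sum without hormone and acinar genes (log2 -0.36, adjusted p = 0.0479) and to endocrine reference genes (-0.52, 0.0208). Over all settings its change ran from -0.52 to 0.51. Chga is itself 1 of the 20 reference genes. As deposited 9 of these 20 rose and 0 fell, so scaling to them lowers other changes. Scg2, Rfx6, Nkx2-2, Isl1, Slc30a8 and Abcc8, described below, are among the 9.

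Of 6 tested hormone genes, Iapp rose, 4 fell and 1 did not pass. Glucagon transcript (Gcg) was 15170 to 18135 FPKM in islets and 5578, 9839, 8634 and 15981 in grafts (log2 -0.84, adjusted p = 0.0237), with graft 4 inside the islet range. Leaving out islet 2, islet 3, islet 4 or graft 3 ended that call, with an adjusted p of up to 0.0621. Quantile normalization and the fit of all 12 libraries ended the Gcg call as well. Pancreatic polypeptide (Ppy) fell in every graft, from 6071 to 8886 FPKM to 2226, 2631, 3471 and 5816 (log2 -1.08, adjusted p = 0.00947), but changed by -0.37 under quantile normalization and did not pass there (adjusted p = 0.369). Somatostatin (Sst) stood at 4761 to 5348 FPKM in islets and at 2217, 3097, 3112 and 5549 in grafts (log2 -0.62, adjusted p = 0.0488). Leaving out any library but graft 4 ended the call, with an adjusted p of up to 0.116, and the change was 0.04 under quantile normalization. Ghrelin (Ghrl), made by a rare islet cell type, was 14 to 16 FPKM in islets and 0.869, 3.27, 1.53 and 8.46 in grafts (log2 -2.14, adjusted p = 0.00403). Graft 4 held the most of all 4 hormones. In bulk libraries, fewer cells of a type and less RNA per cell cannot be told apart.

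Insulin itself could not be compared with confidence. Ins2 was listed at 0 in isolated islets 1 and 2 and in all 4 grafts, but at 293150 and 316265 FPKM in islets 3 and 4. A listed 0 can be a failed estimate, and reads of the near-identical Ins1 and Ins2 may have been split in other ways. Ins1 was listed at 71958, 62036, 42761 and 46753 FPKM in islets and 83330, 70484, 92935 and 89357 in grafts (log2 0.61, adjusted p = 0.0176), and did not pass under any of the 4 other scalings or without islet 3, islet 4 or graft 3 (adjusted p up to 0.0646). The summed share of Iapp, Gcg, Sst and Ppy was 8.79% ± 3.06 of all FPKM in islets and 12.3% ± 1.08 in grafts (exact two-sided permutation p = 0.0857, where 70 assignments allow no less than 0.0286). Without isolated islet replicate 1 the difference was 4.69 percentage points (exact permutation p = 0.0286). With acinar genes and both insulin genes taken out of the sum, the share was 14.8% ± 0.46 against 15.0% ± 1.22 (exact permutation p = 0.857).

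Genes of the mature beta cell divided the isolated islets. The gene of the islet glucose-6-phosphatase, G6pc2, was at 1133 FPKM in isolated islet 1, at 265, 195 and 156 in islets 2 to 4, and at 1163, 1213, 1073 and 1295 in grafts. Its log2 change was 1.93 (SE 0.577, adjusted p = 0.029), and 2.55 without islet 1 (adjusted p = 4.2e-07). Leaving out any other single library ended the call, with an adjusted p of up to 0.0757. The GLUT2 gene Slc2a2 was at 174 FPKM in islet 1, 41.4 to 61.1 in the other islets and 92.8 to 136 in grafts. It did not pass with all islets (log2 0.70, adjusted p = 0.163) but rose without islet 1 (log2 1.14, adjusted p = 6.75e-05).

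Urocortin 3 (Ucn3), a late marker of beta cell maturity, followed the same order, with 361 FPKM in islet 1, 93.9 to 121 in islets 2 to 4 and 157 to 286 in grafts. Its log2 change was 0.66 (adjusted p = 0.219), or 1.11 without islet 1 (adjusted p = 0.000604). The granule zinc transporter gene Slc30a8 was at 340 FPKM in islet 1, 132 to 173 in the other islets and 259 to 363 in grafts (log2 0.67, adjusted p = 0.0489, or 0.95 and 0.00015 without islet 1), and leaving out any other library ended the call (adjusted p up to 0.138). For each of these 4 genes, islets 2 to 4 lay below all 4 grafts, and islet 1 lay within or above the graft range.

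Of 21 tested genes of glucose sensing and incretin receptors, 7 rose and 14 did not pass, and without islet 1 all 14 of those that passed rose. With all islets the share, 33.3%, was below the 35.7% of all genes that were higher. Islet 1 was nearer to the graft mean in 18 of the 21. Among those that rose, the lipid receptor gene Gpr119 went from 6.2, 2.18, 1.35 and 0.989 FPKM to 8.43, 10.5, 8.57 and 9.23 (log2 1.66, adjusted p = 0.00483). The potassium channel subunit gene Abcc8, which encodes the sulfonylurea receptor, went from 93.5 to 172 FPKM up to 171 to 242 (log2 0.82, adjusted p = 0.00706). The GLP-1 receptor gene Glp1r was at 75.9 FPKM in islet 1, 24 to 39.7 in islets 2 to 4 and 65.6 to 110 in grafts (log2 1.08, adjusted p = 0.0206, and up to 0.0631 without islet 2, islet 4 or graft 1). Scaling to endocrine reference genes ended the Glp1r call, and the fit of all 12 libraries the Abcc8 call.

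Graft 1 differed from the other grafts at the GIP receptor gene Gipr. It held 23.1 FPKM, against 66.6, 66 and 63.9 in grafts 2 to 4 and 18.5 to 30.1 in islets (log2 1.19, adjusted p = 0.0142). The fit of all 12 libraries ended the Gipr call.

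**Figure D2:**
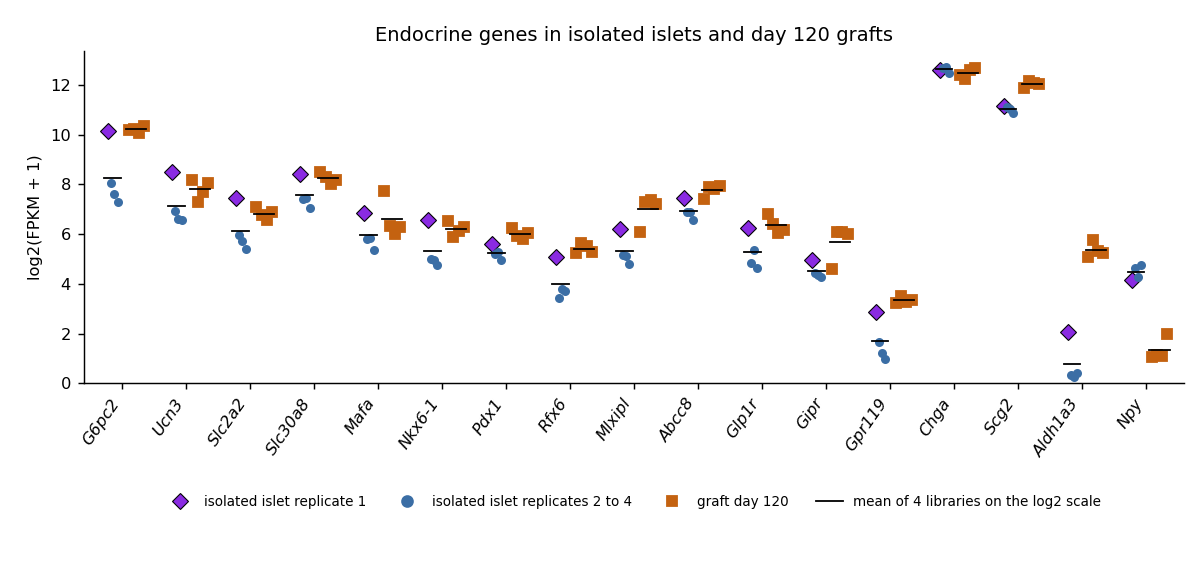
log2(FPKM + 1) of 17 endocrine genes in each library, with purple diamonds for isolated islet replicate 1, blue circles for replicates 2 to 4, orange squares for the 4 day 120 grafts and black bars for group means. Islet replicate 1 sits near the grafts and above the other islets at G6pc2 (1133 FPKM), Ucn3 (361) and Slc2a2 (174), but not at Npy or Scg2.

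Endocrine transcription factor genes changed in both directions. Of 26 tested, 7 rose and 3 fell (26.9% and 11.5%, against 35.7% and 10.1% of all genes), and 9 rose and 7 fell without islet 1. With upper-quartile scaling 6 rose and 8 fell. Pdx1, a master regulator of beta cells, went from 30.2 to 47.4 FPKM up to 54.9 to 75.7, without overlap (log2 0.75, adjusted p = 0.00529). It did not pass with scaling to endocrine reference genes (log2 0.38, adjusted p = 0.0688) or in the fit of all 12 libraries (0.12). Rfx6, needed for beta cell function, was at 33 FPKM in islet 1 and 9.69 to 12.8 in islets 2 to 4, below grafts at 36.8 to 48.9 (log2 1.42, adjusted p = 0.00604). Mlxipl, the gene of the glucose-responsive factor ChREBP, was at 26.6 to 73.4 FPKM in islets and at 66.5, 155, 167 and 148 in grafts (log2 1.67, adjusted p = 0.00601), again lowest in graft 1. The fit of all 12 libraries ended the Mlxipl call.

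Nkx2-2 rose by log2 0.66 (adjusted p = 0.00519), as did Isl1, named after its values were seen, by 0.89 (0.0183, and up to 0.0572 with a library left out). Like Pdx1, neither passed with scaling to endocrine reference genes or in the fit of all 12 libraries. Mafa, which drives insulin transcription, was at 113, 54.3, 55.8 and 39.8 FPKM in islets and at 215, 79, 63.8 and 76.8 in grafts and did not pass (adjusted p = 0.233, or 0.116 without islet 1). Nkx6-1, a beta cell identity factor, was at 93.2 FPKM in islet 1, 25.8 to 30.9 in islets 2 to 4 and 57.8 to 91.4 in grafts. It did not pass with all islets (log2 0.89, adjusted p = 0.0655) and rose without islet 1 (log2 1.30, adjusted p = 1.9e-05). Glis3 (log2 -0.89) and St18 (-0.42), named after their values were seen, were among the 3 that fell, St18 with an adjusted p of up to 0.103 with a library left out.

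Among 21 tested ion channel genes, 7 rose and 4 fell, and 3 rose and 6 fell when scaled to endocrine reference genes. The two-pore potassium channel gene Kcnk16 went from 62.2 to 144 FPKM up to 180 to 222 (log2 1.09, adjusted p = 0.00413), and Kcnh6 rose by log2 1.43. Those that fell, chosen after their values were seen, were the calcium channel genes Cacna1c (-0.87), Cacnb2 (-0.55) and Cacna2d1 (-0.45) and the potassium channel gene Kcnk3 (-0.97). With 1 library left out their adjusted p reached 0.056, 0.0841, 0.108 and 0.0565, in that order, and none of these 4 calls held throughout. Of 31 granule and exocytosis genes, 13 rose and 2 fell (41.9% and 6.45%), with 7 and 5 when scaled to endocrine reference genes.

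Secretogranin 2 (Scg2) was the most abundant of those that rose, from 2306, 2193, 2089 and 1867 FPKM to 3808, 4560, 4351 and 4228 (log2 1.00, SE 0.113, adjusted p = 0.000211). Islet 1 stood with the other islets here. Baiap3, which acts in dense-core vesicle traffic, went from 11.3 to 24.5 FPKM up to 33.7, 67.3, 60.5 and 65.3 (log2 1.74, adjusted p = 0.00113). Tmem27, a beta cell surface protein, rose by 1.04 and the signal peptidase subunit gene Sec11c by 0.92. Both that fell, Vgf (-1.53) and the synaptotagmin gene Syt4 (-0.85), were chosen after their values were seen, and leaving out a library ended the Vgf call in 6 of 8 fits (adjusted p up to 0.0894).

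Among alpha, delta and PP cell genes, 6 of 17 rose and 2 fell (35.3% and 11.8%), close to the 35.7% and 10.1% of all genes, and 8 rose and 4 fell without islet 1. Gc, the vitamin D binding protein of alpha cells, went from 32.8 to 52.8 FPKM up to 92.4 to 143 (log2 1.54, adjusted p = 0.00026) while Gcg fell. The opioid peptide precursor gene Pdyn went from 22 to 53.4 FPKM up to 71 to 196 (log2 1.91, adjusted p = 0.00244), and Etv1 and Fap rose by 0.93 and 1.03. Rbp4 (-0.60, adjusted p up to 0.0966 with a library left out) and Peg10 (-0.68), both named after their values were seen, fell. Peg10 reached the filter through the islets alone.

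Genes that beta cells normally keep silent rose in 10 of 19 and fell in 1 (52.6% and 5.26%), with 10 and 5 without islet 1. Of these 19, 2 reached the filter through the grafts alone. Dcn went from 6.25, 8.63, 7.4 and 9.18 FPKM to 342, 224, 170 and 322 (log2 4.86, SE 0.219, adjusted p = 7.96e-07). The growth factor binding protein gene Igfbp4 rose by log2 3.62 and the transcription factor gene Maf by 2.03. Pdgfra, a receptor of fibroblasts, went from 0.092 to 0.18 FPKM up to 1.26 to 2.87 (log2 1.28). The gene that fell, Smad3 (-0.84), was chosen after its values were seen. Dcn is also the largest rise of the fibroblast and matrix list, so the 2 lists are not independent. The fibroblast and matrix list, in which 33 of 35 tested members rose, summed to 154 to 209 FPKM in islets and 851 to 1870 in grafts. The part of fibroblast RNA in these rises was not tested.

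Genes linked to beta cell dedifferentiation split into 5 that rose and 3 that fell of 12 tested (41.7% and 25.0%). Aldh1a3, a retinaldehyde dehydrogenase, was at 3.14 FPKM in islet 1, 0.263, 0.18 and 0.32 in islets 2 to 4 and 33, 53.6, 38.7 and 36.6 in grafts (log2 4.59, SE 0.368, adjusted p = 3.39e-05). Serpina7, a thyroxine-binding globulin gene, went from 1.35 to 3.63 FPKM up to 24.3 to 49.9 (log2 3.53, adjusted p = 1.31e-05). The hormone gene Cck, listed at 0 in 3 islets and at 0.317 in islet 2, was at 5.24, 4.05, 4.72 and 1.51 FPKM in grafts. Cck reached the filter through the grafts alone. The neuropeptide gene Npy fell in every graft, from 17, 24.2, 18.5 and 26.1 FPKM to 1.1, 1.19, 1.16 and 2.94 (log2 -3.14, adjusted p = 1.74e-05). Of the members chosen after their values were seen, the endocrine progenitor factor gene Neurog3 rose from 1.28 to 1.83 FPKM up to 2.87 to 7.78 (1.14) and Fabp3 rose by 0.72 (adjusted p up to 0.0778 with a library left out). Sox9, a duct and progenitor factor (log2 -1.57), and the oncogene Myc (-1.58) fell. Sox9 reached the filter through the islets alone.

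Exocrine transcripts were close to 0 in the grafts. Acinar genes held 2.4%, 18.1%, 3.38% and 14.8% of all FPKM in isolated islets 1 to 4 and 0.0119% to 0.0154% in grafts (9.69% ± 7.97 against 0.0137% ± 0.00158, exact two-sided permutation p = 0.0286, the smallest possible). Without Ins1 and Ins2 in the sum, where Ins2 is in doubt, the islet shares were 2.89%, 20.7%, 6.64% and 27.6% (14.5% ± 11.6), with islet 4 the highest, against 0.0167% ± 0.00176 in grafts. Of 34 tested members, 32 fell, 29 of which reached the filter through the islets alone. Chymotrypsinogen (Ctrb1) was at 1278, 12545, 2875 and 15370 FPKM in islets, listed at 0 in 3 grafts and at 0.133 in graft 4. Pancreatic elastase (Cela2a) was at 1146 to 14278 FPKM in islets and 0.129 to 0.459 in grafts (log2 -11.88, adjusted p = 0.000134). Amylase (Amy2a5) and the trypsinogen gene Prss2 were listed at 0 in all 4 grafts. Trypsinogen and amylase genes have near-identical copies, among which reads may be shared.

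The 2 acinar-list members that rose, named after their values were seen, are not digestive enzymes. Bhlha15 encodes Mist1, a secretory cell factor, and went from 13.6 to 16.8 FPKM up to 17.9 to 30.4 (log2 0.62, adjusted p = 0.0171, and up to 0.0531 with a library left out). Gatm, an enzyme of creatine synthesis, went from 4.45 to 15.1 FPKM up to 14.9 to 32.5 (log2 1.40, adjusted p = 0.00725). All 6 tested genes of the Reg family, secreted lectins of acinar and injured islet tissue, fell, and all reached the filter through the islets alone. Reg1 was at 299 to 2992 FPKM in islets, listed at 0 in 3 grafts and at 0.166 in graft 1, and Reg2 and Reg3b were listed at 0 in all grafts after 108 to 637 and 77.7 to 540 FPKM in islets. Like the enzymes, Reg1 was highest in islets 2 and 4.

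Duct and simple keratin genes fell in 13 of 19 (68.4%), and 6 did not pass. Of the 15 that did not depend on the islets for the filter, 9 fell. The duct keratin gene Krt19 was at 95.6 FPKM in islet 1, 18.4, 9.26 and 20.3 in islets 2 to 4 and 0.72, 0.417, 0.085 and 0.39 in grafts (log2 -4.19, adjusted p = 0.00145). Islet 1, lowest in acinar share, held the most Krt19, and it was the highest of all 8 libraries in 10 of these 19 genes. Krt8 and Krt18 partner in simple epithelia, including endocrine cells, and went from 315 to 538 down to 46.8 to 55.7 FPKM (log2 -2.97, adjusted p = 2.48e-06) and from 187 to 345 down to 82.4 to 92.9 (log2 -1.51). The tight junction gene Cldn3 (log2 -1.52) and the epithelial factor gene Elf3 (-2.42) fell. Krt7, chosen after its values were seen, did not move with its family, at 71.5 to 109 FPKM in islets and 85.6 to 95.8 in grafts (log2 0.07, 95% interval -0.25 to 0.38, adjusted p = 0.719).

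Folding genes of the endoplasmic reticulum did not fall as a block. Of 41 tested, 13 rose and 10 fell (31.7% and 24.4%), and 3 rose and 15 fell when scaled to endocrine reference genes. The BiP gene Hspa5, the master chaperone, fell from 1925, 3084, 2671 and 2473 FPKM in islets to 637, 644, 618 and 483 in grafts (log2 -2.08, SE 0.159, adjusted p = 1.98e-05). Genes that rose included the disulfide reductase gene Dnajc10, from 12.8 to 20.1 up to 36.4 to 46.5 FPKM (log2 1.29, adjusted p = 0.000342), and the signal peptidase gene Spcs2 (0.82).

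Many folding genes carry the endoplasmic reticulum stress response element (ERSE) bound by ATF6 with the factor NF-Y, so the promoters of the list were searched. RefSeq promoters (build GRCm38.p6, 250 bases before to 50 after the start) were matched for 33 members. ERSE, searched as CCAAT and CCACG with any 9 bases between them, was found on either strand in 10 of these 33 (30.3%) and in 37 of 27025 promoters in all (0.137%). A second form, ERSE-II, searched as ATTGG and CCACG with any 1 base between them, was found in 2 of 33 (6.06%) and in 12 of 27025 (0.0444%). The list was drawn up from genes known for this response, so the share is a description of it.

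As deposited, the same element stood in front of genes that moved in opposite directions. Of the 10 ERSE promoters, 3 belonged to genes that fell (Hspa5, Hsp90b1 and Calr), 3 to genes that rose (Canx, Pdia6 and Dnajc3) and 4 to genes that did not pass. Both ERSE-II genes, Herpud1 and Dnajb11, fell. Printed here are stretches of 6 of these promoters, chosen as 3 whose genes fell and 3 whose genes rose, 5′ to 3′ on the gene's strand, with the element in capitals (read on the opposite strand in Calr). Hspa5 lies at chr2:34772005-34772063 (plus strand), Herpud1 at chr8:94386357-94386407 (plus), Calr at chr8:84847055-84847113 (minus), Pdia6 at chr12:17266471-17266529 (plus), Canx at chr11:50325780-50325838 (minus) and Dnajc3 at chr14:118937807-118937865 (plus).
Hspa5: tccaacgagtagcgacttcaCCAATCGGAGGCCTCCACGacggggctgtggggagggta
Herpud1: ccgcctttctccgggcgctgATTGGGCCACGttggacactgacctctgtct
Calr: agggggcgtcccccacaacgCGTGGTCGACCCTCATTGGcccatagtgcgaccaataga
Pdia6: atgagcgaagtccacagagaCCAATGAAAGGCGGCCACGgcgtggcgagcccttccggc
Canx: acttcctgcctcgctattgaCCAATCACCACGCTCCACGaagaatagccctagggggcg
Dnajc3: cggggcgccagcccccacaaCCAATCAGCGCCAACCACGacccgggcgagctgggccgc

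These carriers, apart from Hspa5, were chosen after their values were seen. Herpud1, a component of protein degradation at the reticulum, was at 567, 296, 264 and 238 FPKM in islets and 119 to 156 in grafts (log2 -1.21, adjusted p = 0.00432). Calreticulin (Calr) went from 538 to 631 down to 372 to 486 FPKM (log2 -0.45), and Hsp90b1 (-0.55) and Dnajb11 (-0.71) fell. The disulfide isomerase gene Pdia6 went from 132 to 169 up to 183 to 253 FPKM (log2 0.60, adjusted p = 0.00666). Calnexin (Canx) rose by log2 0.42 (adjusted p = 0.0375) and the co-chaperone gene Dnajc3 by 0.77 (adjusted p = 0.00855). The Canx change ranged from 0.05 to 0.55 over the settings tried, and leaving out any library but islet 1 ended the call (adjusted p up to 0.115). Scaling to endocrine reference genes ended the calls of Canx, Pdia6 and Dnajc3. The fit of all 12 libraries ended those of Canx, Calr and Hsp90b1.

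ATF4, translated when the kinase PERK or amino acid shortage slows protein synthesis, had a lower transcript and lower targets. Atf4 was at 278, 317, 312 and 312 FPKM in islets and 123, 142, 119 and 147 in grafts (log2 -1.20, SE 0.116, adjusted p = 9.58e-05). Of 37 ATF4 targets and tRNA synthetase genes, 21 fell and 1 rose (56.8% lower, against 10.1% of all genes), and 29 fell and 2 rose without islet 1. The rise, of the leucyl-tRNA synthetase gene Lars (0.63), was picked out after its values were seen.

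The phosphatase subunit gene Ppp1r15a (GADD34), which restarts translation, went from 134, 116, 110 and 104 FPKM to 19.1, 19.5, 21 and 23.8 (log2 -2.42, SE 0.129, adjusted p = 2.33e-06). Ddit3, the gene of the death-linked factor CHOP, was at 159 FPKM in islet 1, 66.5 to 79.8 in islets 2 to 4 and 19.1 to 25.1 in grafts (log2 -1.90, adjusted p = 0.00052). Cebpb, a partner of ATF4, fell by log2 1.67. Each of these 3 genes was lower in every graft than in any islet.

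The C/EBP-ATF response element (CARE) that ATF4 binds, written TGATGNAA, was found on either strand in 13 of 34 matched promoters of this list (38.2%) and in 1219 of 27025 in all (4.51%). Of the 20 matched members that fell, 9 held it, and of the 12 that did not pass, 3 held it. The list was drawn up from genes known for this response, so these shares are a description of it. A link between the element and the falls was not tested. Shown here, with the element in capitals (on the opposite strand where it reads TTGCATCA), are Asns at chr6:7693210-7693252 (minus strand), Slc7a11 at chr3:50443633-50443699 (minus) and Chac1 at chr2:119351029-119351076 (plus), all 3 chosen after their values were seen.
Asns: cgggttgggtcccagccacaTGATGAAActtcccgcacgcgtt
Slc7a11: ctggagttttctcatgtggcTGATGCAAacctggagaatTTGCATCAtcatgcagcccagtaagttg
Chac1: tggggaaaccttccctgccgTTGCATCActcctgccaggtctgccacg

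Asparagine synthetase (Asns) divided the islets like the mature beta cell genes. It was at 44.8 FPKM in islet 1, 99.6, 97.2 and 108 in islets 2 to 4 and 36.1 to 52.8 in grafts (log2 -0.94, adjusted p = 0.0153, or -1.23 and 1.53e-05 without islet 1). The cystine transporter gene Slc7a11, with a pair of elements, was low but distinct, at 3.6 to 3.98 FPKM in islets and 1.33 to 2.04 in grafts (log2 -0.85, adjusted p = 0.00281). Chac1, which degrades glutathione, went from 25.5 to 40.4 down to 4.78 to 16.1 FPKM (log2 -1.87, adjusted p = 0.00145). The pseudokinase gene Trib3, also chosen after its values were seen, was at 4.37 FPKM in islet 1, 36.6 to 37.8 in islets 2 to 4 and 0.857 to 2.76 in grafts (log2 -3.21, or -3.92 without islet 1). Nupr1 (-2.14) and the alanyl-tRNA synthetase gene Aars (-1.32), chosen likewise, also fell, although leaving out any library but islet 1 ended the Nupr1 call (adjusted p up to 0.104).

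Immediate early genes, which answer any acute stimulus within minutes, fell in 15 of 32 and rose in 1 (46.9% and 3.12%). Islet 1 was the highest of all 8 libraries in 26 of the 32. Jund, an AP-1 subunit gene, was at 164 to 266 FPKM in islets and 38.5 to 48.9 in grafts (log2 -2.34, SE 0.159, adjusted p = 9.23e-06). The small Maf gene Maff (log2 -2.19) and Csrnp1 (-2.74) also fell.

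Other members showed islet 1 alone, and were chosen for that after their values were seen. Fos was at 632 FPKM in islet 1, 9.74 to 10.2 in islets 2 to 4 and 6.39, 11.6, 9.79 and 53.4 in grafts. Fosb was at 659 FPKM in islet 1, 9.31 to 10.9 in the other islets and 0.524 to 9.78 in grafts, and Egr1 at 533, 18.2 to 23.6 and 3.46 to 47.2. None of these 3 passed with all islets (adjusted p = 0.631, 0.149 and 0.425) or without islet 1 (0.602, 0.0988 and 0.839). The member that rose, the endothelial and lymphocyte factor gene Klf2, also named after its values were seen, was at 9.41 FPKM in islet 1, 0.654 to 1.09 in islets 2 to 4 and 6.32 to 14.8 in grafts (log2 1.87, adjusted p = 0.0273, and up to 0.0766 with a library left out).

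Cytosolic heat shock genes were also highest in islet 1. Islet 1 was the highest of the 8 libraries in 15 of 20. With all islets 4 fell and 1 rose, and without islet 1, 6 fell and 5 rose. Hspa1a, the inducible HSP70 gene chosen after its values were seen, was at 740 FPKM in islet 1, 3.85 to 4.6 in the other islets and 0.712 to 2.32 in grafts (adjusted p = 0.204, or log2 -1.20 and 0.000824 without islet 1). Its copy Hspa1b is near-identical, so reads may be shared. The co-chaperone gene Dnajb1, chosen likewise, was at 387 FPKM in islet 1, 7.12 to 8.73 in islets 2 to 4 and 6.03 to 9.61 in grafts.

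The 4 that fell with all islets were Hsp90ab1 (log2 -0.96), Bag3 (-1.30), Hspa4l (-0.77) and, named after its values were seen, Hsp90aa1 (-0.86, adjusted p up to 0.0747 with a library left out). Hsf1, the factor that drives the response, rose by 0.64 (adjusted p up to 0.0532).

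**Figure D3:**
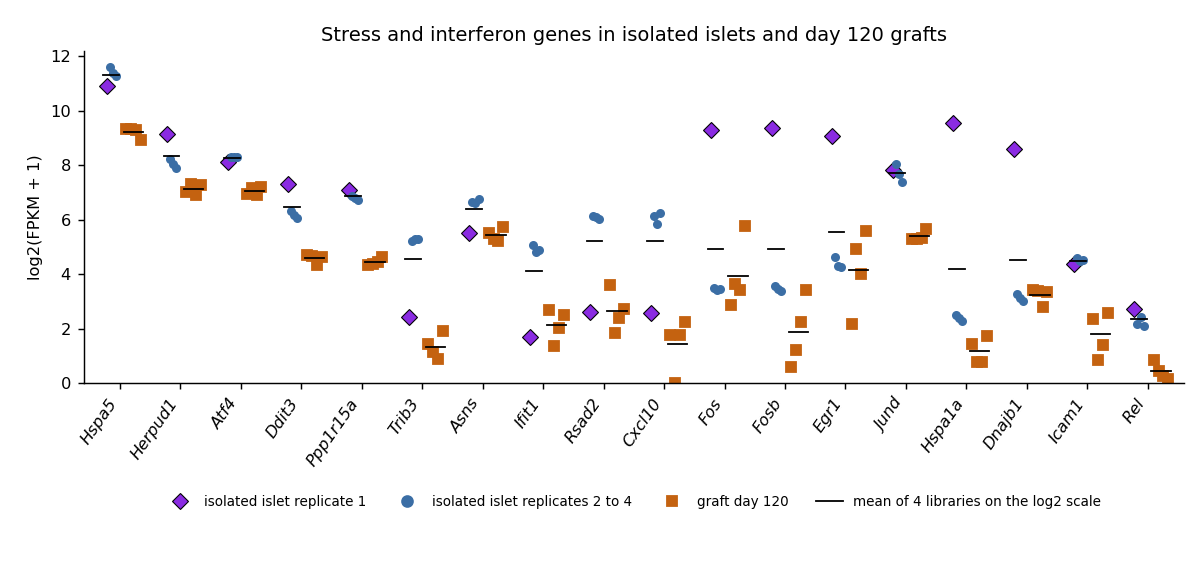
log2(FPKM + 1) of 18 stress and interferon genes in each library, with purple diamonds for isolated islet replicate 1, blue circles for replicates 2 to 4, orange squares for the 4 day 120 grafts and black bars for group means. Islet replicate 1 stands far above all others at Fos (632 FPKM), Fosb (659), Egr1 (533), Hspa1a (740) and Dnajb1 (387), and near the grafts at Trib3 (4.37), Asns (44.8), Ifit1 (2.25) and Rsad2 (5.19).

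NF-kappaB transmits inflammatory signals, and its subunits, inhibitors and targets were lower in grafts with or without islet 1. Of 25 tested, 18 fell and 7 did not pass (72.0% lower), including 3 that reached the filter through the islets alone, and 21 fell and 1 rose without islet 1. The adhesion molecule gene Icam1 was at 19.8, 23.3, 21.4 and 22 FPKM in islets and 4.13, 0.801, 1.65 and 5 in grafts (log2 -2.70, adjusted p = 0.000374). The subunit gene Rel went from 3.25 to 5.55 down to 0.115 to 0.786 FPKM (log2 -1.92, adjusted p = 0.000157). Bcl3 (-1.62) and the cytokine signalling inhibitor gene Socs3 (-1.62) also fell.

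Interferon-stimulated genes changed both ways, with 8 higher and 7 lower of 36 (22.2% and 19.4%), and 8 higher and 18 lower without islet 1. That library was the lowest of all 8 libraries in 19 of the 36. Ifit1, an antiviral RNA binder chosen after its values were seen, was at 2.25 FPKM in islet 1, 32.4, 27 and 28.8 in islets 2 to 4 and 5.48, 1.59, 3.05 and 4.61 in grafts (adjusted p = 0.0687, or log2 -2.78 and 4.22e-05 without islet 1). Rsad2 (viperin), chosen likewise, was at 5.19, 69.8, 67 and 64.5 FPKM in islets and 2.63 to 11.3 in grafts (log2 -2.58, adjusted p = 0.0454, and up to 0.107 with a library other than islet 1 left out).

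Other interferon genes rose. Ifi27l2a was at 1.13 to 2.22 FPKM in islets and 189, 26.6, 117 and 34.1 in grafts (log2 4.61, adjusted p = 0.00113), highest in grafts 1 and 3. Irf8, a factor of macrophages and other myeloid cells, went from 0.591 to 1.13 up to 2.91 to 6.12 FPKM (log2 1.46), and Ifitm2 rose by 1.46. Irf1 fell in every graft (log2 -1.07, adjusted p = 0.00256).

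Metallothioneins, small proteins that bind zinc, were lower. Mt1 was at 380, 949, 544 and 1027 FPKM in islets and 61.1 to 140 in grafts (log2 -2.87, adjusted p = 0.000404), and Mt2 fell by log2 3.09. Both were highest in islets 2 and 4, which also held the largest acinar shares, and the part of acinar RNA in this was not tested. Across 15 zinc transporters and metallothioneins, 6 rose and 5 fell (40.0% and 33.3%). The Golgi zinc transporter gene Slc30a5 went from 12.3 to 16.6 up to 26.8 to 33.4 FPKM (log2 1.08, adjusted p = 0.000461).

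Respiratory chain genes were slightly higher as deposited. Of 70 respiratory chain subunits 32 rose (45.7%) and 38 did not pass, with a median log2 change of 0.38 beside 0.28 for all genes. With scaling to endocrine reference genes 5 rose and 11 fell. Ndufa4 went from 96.2, 136, 104 and 103 FPKM to 289, 248, 253 and 192 (log2 1.15, adjusted p = 0.0006) and Ndufa3 rose by 1.18. Cytosolic ribosomal proteins rose in 32 of 78 (41.0%, median 0.34), in 4 with upper-quartile scaling and in 49 with quantile normalization. Rpl36a (0.98) and Rps4x (0.57) were among them.

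Glycolysis and hypoxia genes did not move together, with 9 of 31 higher and 4 lower (29.0% and 12.9%, against 35.7% and 10.1% of all genes). When scaled to the sum without hormone and acinar genes, 1 was higher and 7 were lower. The glucose transporter gene Slc2a1 went from 7.85, 17.2, 13.7 and 12 FPKM to 6.36, 2.78, 2.88 and 3.97 (log2 -1.46, adjusted p = 0.00275). Pfkp, the platelet-type phosphofructokinase (log2 -1.20), fell, as did Gapdh (-0.41) and Pgk1 (-0.53), both named after their values were seen, with adjusted p of up to 0.0945 and 0.125 when a library was left out. Pdk1, which keeps pyruvate from the mitochondrion, rose by 0.83.

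Sterol and lipid genes rose in 8 of 30 and fell in 2 (26.7% and 6.67%, against 35.7% and 10.1% of all genes). Under upper-quartile scaling 4 rose and 5 fell, and without islet 1, 11 rose and 5 fell. Stearoyl-CoA desaturase 1 (Scd1), a fat cell enzyme, went from 8.33 to 10.3 FPKM up to 81, 57, 51.5 and 51.7 (log2 2.57, SE 0.165, adjusted p = 6.34e-06), and Dhcr7 rose by 0.78. Fdft1 (-0.52), an enzyme gene of sterol synthesis named after its values were seen, fell, with an adjusted p of up to 0.11 when a library was left out.

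Among 37 lysosomal genes 9 rose and 4 fell (24.3% and 10.8%, against 35.7% and 10.1% of all genes). The cathepsin gene Ctsk, abundant in osteoclasts, macrophages and fibroblasts, went from 0.574 to 2.45 FPKM up to 10.1 to 27.9 (log2 2.75, adjusted p = 0.000342). The genes that fell, found after their values were seen, all belong to the proton pump: Atp6v0c (-0.60), Atp6v1b2 (-0.39), Atp6v1e1 (-0.80) and Atp6ap2 (-0.53). Leaving out a library ended the call of Atp6v1b2 in 6 of 8 fits (adjusted p up to 0.0929) and of Atp6ap2 in 4 (up to 0.0676).

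Of 36 proteasome genes 3 rose and 2 fell (8.33% and 5.56%), and without islet 1, 6 rose and 14 fell. Those that rose were Psma1 (0.57), Psma4 (0.45) and the immunoproteasome gene Psmb9 (1.07). Psmd3 (-0.63) and, named after its values were seen, Psmd12 (-0.59) fell, but leaving out a library ended the first call in 5 of 8 fits (adjusted p up to 0.0779) and the second in 7 (up to 0.12). At Psmd3 islet 1 held 35.4 FPKM, the other islets 61.1 to 67.5 and the grafts 32.3 to 38.9.

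Clock genes fell in 7 of 17 (41.2%) and 10 did not pass. Cry1 and Cry2, the repressors of the loop, went from 9.57 to 21.2 down to 2.74 to 6.75 FPKM (log2 -1.73, adjusted p = 0.00155) and from 66.5 to 82.6 down to 17.8, 35.2, 36.1 and 36.2 (log2 -1.24, adjusted p = 0.00212). The repressor gene Bhlhe40 (-1.87) and the nuclear receptor gene Rora (-1.93) fell as well.

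Graft 1 stood apart from the other grafts in the clock's output, in genes chosen after their values were seen. The repressor gene Nr1d1 (Rev-erb alpha) was at 10.5 FPKM in graft 1 and 42, 50 and 58.4 in grafts 2 to 4. Dbp was at 3.94 against 21.8 to 51.2, and Tef at 5 against 20.2 to 34.5. Arntl (Bmal1), an activator that peaks in the opposite phase, was at 10.1 FPKM in graft 1 and 3.64, 2.63 and 1.55 in grafts 2 to 4. None of these 4 genes passed between the groups. The time of day of collection is not given in the labels used here.

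**Figure D4:**
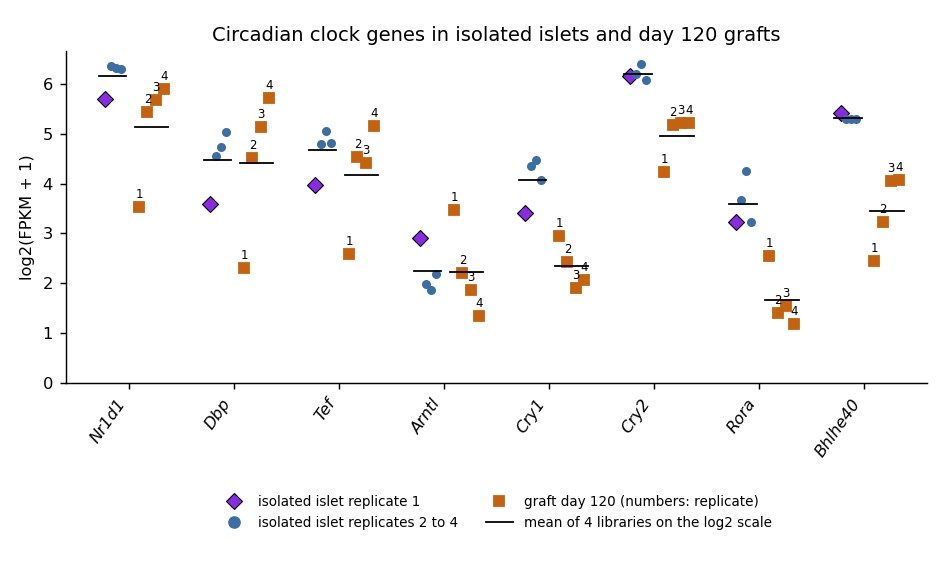
log2(FPKM + 1) of 8 clock genes in each library, with purple diamonds for isolated islet replicate 1, blue circles for replicates 2 to 4, orange squares for day 120 grafts with their replicate numbers and black bars for group means. Graft 1 is lowest at Nr1d1 (10.5 FPKM), Dbp (3.94) and Tef (5) and highest at Arntl (10.1).

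Cell division genes were low in both groups. Of 40 mitosis and replication genes measured, 24 reached the filter, with 1 higher and 1 lower, and 7 higher without islet 1, which held the most in 11 of the 24. The licensing factor genes Mcm7 and Mcm6 changed by log2 0.63 (adjusted p = 0.0305) and -0.83 (0.00706). Leaving out a library ended the Mcm7 call in 6 of 8 fits (adjusted p up to 0.0878). In a list of D cyclins, their kinases and inhibitors, and genes of the RB and p53 pathways, 7 of 15 rose and 1 fell. These shares were 46.7% and 6.67%, against 35.7% and 10.1% of all genes. Cdk4, the kinase beta cells rely on, went from 60.8, 35.5, 34.8 and 33.2 FPKM to 62.7, 80.7, 72.5 and 79.6 (log2 0.87, adjusted p = 0.00606). The inhibitor gene Cdkn2c rose from 3.47 to 6.06 up to 11.1 to 12 FPKM (log2 1.24, adjusted p = 0.000659). Cdkn1a, the p21 gene induced by damage and stress, fell from 25.9 to 47.7 down to 7.3 to 9.41 (log2 -2.06, SE 0.188, adjusted p = 6.84e-05).

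In insulin and IGF signalling 6 of 26 rose and 4 fell (23.1% and 15.4%), and 6 rose and 8 fell without islet 1. Among secreted members that rose, Igf1 went from 0.216 to 1.32 up to 5.5 to 10.9 FPKM (log2 2.13, adjusted p = 0.00029) and Igfbp6 from 0.134 to 0.633 up to 9.94 to 30.3 (log2 4.08, adjusted p = 1.98e-05). Both are also made by fibroblasts or macrophages, and Igfbp6 reached the filter through the grafts alone, so it had to be higher. The IGF receptor gene Igf1r, chosen after its values were seen, was at 6.31 FPKM in islet 1, 32, 41.2 and 26.8 in islets 2 to 4 and 3.93 to 6.41 in grafts (log2 -1.99, adjusted p = 0.0107, or -2.54 and 6.03e-07 without islet 1). Gsk3b (-1.03) fell, as did Foxo3 (-0.62) and Grb10 (-0.62), both named after their values were seen and with adjusted p of up to 0.0777 and 0.0573 when a library was left out.

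Among 16 imprinted genes 3 rose and 4 fell (18.8% and 25.0%, against 35.7% and 10.1% of all genes). Plagl1, a zinc finger factor gene, went from 5.26 to 8.31 down to 1.03 to 1.74 FPKM (log2 -1.76, adjusted p = 0.000128) and Rasgrf1, a factor of calcium-coupled Ras signalling, fell by 1.16. Cdkn1c and Mest rose by 1.16 and 0.79.

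Fat cell genes rose in 24 of 31 (77.4%) and fell in 2, with grafts 1 and 3 above grafts 2 and 4. Of the 26 members that reached the filter in both groups, 20 rose and 1 fell. The adiponectin gene Adipoq was at 2.05 to 3.12 FPKM in islets and 110, 25.1, 91.7 and 32.5 in grafts (log2 3.99, adjusted p = 0.000267). The fatty acid binding protein gene Fabp4 was at 23.9 to 32.6 FPKM and then 652, 158, 684 and 176 (log2 3.57), and the lipid droplet coat gene Plin1 at 0.138 to 0.441 and then 20.6, 5.45, 21.4 and 5.73 (log2 3.24). The leptin gene Lep ran from 0.25 to 0.813 in islets to 32.7, 11.2, 29.3 and 9.26 FPKM in grafts (log2 3.71). Grafts 1 and 3 were highest at each of these 4 genes.

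The whole list held 0.372%, 0.128%, 0.382% and 0.145% of FPKM in grafts 1 to 4 and 0.0239% to 0.0438% in islets, where the doubtful Ins2 value lowers the share of islets 3 and 4. Its summed FPKM was 188 to 197 in islets and 591 to 1776 in grafts. The 2 members that fell, Nrip1 (log2 -1.95) and Cidea (-1.19), were named after their values were seen, and both are also active outside fat.

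Fibroblast and matrix genes rose in 33 of 35 tested members (94.3%), and 2 did not pass. Of these members, 12 reached the filter through the grafts alone, and of the other 23, 21 rose. Both fibrillar collagen genes described were highest in graft 4. Col1a1 was at 1.3 to 3.48 FPKM in islets and 29.6, 24.3, 21.1 and 127 in grafts (log2 3.56, adjusted p = 0.00159), and Col3a1, chosen after its values were seen, at 3.1 to 4.88 and then 50.8, 39.3, 37.6 and 139 (log2 3.52). The proteoglycan gene Lum and the dermal matrix gene Dpt rose by 3.88 and 4.32 and did not single out graft 4, with Dpt at 88, 55.7, 65.7 and 56 FPKM. Clec3b (4.50), the matrix gene Ogn (4.77) and the methyltransferase gene Inmt (4.75) were in every graft above every islet.

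Matrix protease genes rose in 12 of 20 and fell in 2 (60.0% and 10.0%), and 6 of those that rose reached the filter through the grafts alone. Mmp2, a gelatinase, went from 0.46 to 0.834 up to 11.7, 9.46, 7.6 and 29.5 FPKM (log2 3.06, adjusted p = 0.0002), and Mmp3 rose by 3.17. Adamts1 (-1.28) and the plasminogen activator gene Plat (-0.95, adjusted p up to 0.0508 with a library left out), named after their values were seen, fell. Of 14 basement membrane genes 3 rose and 1 fell (21.4% and 7.14%), and 4 rose and 2 fell without islet 1. Nid1 rose by 1.23, and Lama4 (0.85) and Lamb2 (0.83) did so less firmly (adjusted p up to 0.109 with a library left out).

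Vessel genes rose in part. Of 28 endothelial genes 14 rose and 1 fell (3.57%), with 8 and 1 under quantile normalization. Among all genes 35.7% rose and 10.1% fell. Of these 28, 3 reached the filter through the grafts alone, and of the other 25, 11 rose and 1 fell. Gpihbp1, which anchors lipoprotein lipase in fat capillaries, went from 2.95 to 6.95 up to 14 to 18.5 FPKM (log2 1.67, adjusted p = 0.0005). Egfl7 rose by 1.12 and the endothelial nitric oxide synthase gene Nos3 by 1.21. The general marker Pecam1 was at 12.6, 23.8, 22.3 and 20.6 FPKM in islets and 43.4, 11.5, 16.2 and 32.6 in grafts and did not pass (log2 0.23, 95% interval -0.61 to 1.07). Sox7 (-0.80), named after its values were seen, fell, with an adjusted p of up to 0.0734 when a library was left out. Summed, the list ran from 235 to 311 FPKM in islets and from 226 to 514 in grafts.

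Of 6 lymphatic genes, the chemokine gene Ccl21a went from 0 to 0.243 up to 31.6, 5.69, 4 and 17.3 FPKM (log2 3.46, adjusted p = 0.00145). Ccl21a reached the filter through the grafts alone, and so had to be higher. Lyve1, also made by macrophages, rose by 1.20 (adjusted p up to 0.0605 with a library left out). Prox1, a lymphatic factor that pancreatic cells express too, fell from 7.54 to 11 down to 2.41 to 4.76 (log2 -1.20, adjusted p = 0.0014). Angiogenic ligand genes rose in 9 of 15 and fell in 1 (60.0% and 6.67%, against 35.7% and 10.1% of all genes). Of these 15, 3 reached the filter through the grafts alone, and of the other 12, 6 rose and 1 fell. Vegfa, which beta cells secrete, was at 74.9 to 110 FPKM in islets and 94, 166, 157 and 177 in grafts (log2 0.72, adjusted p = 0.0174, and up to 0.0557 with a library left out). Fgf1 went from 1.54 to 2.44 up to 8.23 to 9.67 (log2 1.78, adjusted p = 5.76e-05). Thbs1, an inhibitor of vessel growth, fell from 13.2 to 34.3 down to 9.83, 3.02, 2.86 and 4.5 FPKM (log2 -2.23, adjusted p = 0.00193).

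Smooth muscle and pericyte genes rose in 6 of 13 (46.2%, against 35.7% of all genes). Tagln was highest in graft 1, at 2.71 to 4.25 FPKM in islets and 31.5, 5.59, 7.73 and 13.3 in grafts (log2 1.59, adjusted p = 0.0132), and Rgs5 rose by 0.69 (adjusted p up to 0.0538 without islet 4). Acta2 was at 11.6 to 18.1 FPKM in islets and 44.3, 7.94, 15.5 and 20 in grafts and did not pass (adjusted p = 0.414). Of 11 Schwann cell genes 5 rose and 1 fell (45.5% and 9.09%, against 35.7% and 10.1% of all genes). The defining factor gene Sox10, at 0.237 to 1.49 FPKM in grafts, was too low to test. Mbp, named after its values were seen, fell by 1.13, with an adjusted p of up to 0.103 when a library was left out.

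RNA of other neighbours was scarce. Of 14 skeletal muscle genes 2 reached the filter and neither passed, with Acta1 at 2.22 to 5.03 FPKM in islets and 2.25 to 5.94 in grafts. Of 12 skin and mammary genes 1 was tested, and Krt10 rose by 0.57. Only 6 of 25 lymphocyte genes were tested. The B cell gene Cd37 rose by 1.91, Igj, the joining chain gene of plasma cells, was at 2.4, 11.6, 8.34 and 42.2 FPKM in grafts (log2 2.79, adjusted p = 0.0202, or 0.0519 without islet 1 and up to 0.0555 without islet 2, islet 3 or graft 2), and Blnk fell by 0.66 (up to 0.0542 without graft 2 or graft 3). The T cell gene Cd3e was at 0.066 to 1.2 FPKM in grafts.

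Macrophage genes rose in 25 of 26 tested members (96.2%). Of these, 7 reached the filter through the grafts alone, and of the other 19, 18 rose. The lysozyme gene Lyz2 was at 6.59 to 7.95 FPKM in islets and 280, 176, 122 and 155 in grafts (log2 4.43, SE 0.219, adjusted p = 1.39e-06). The complement gene C1qa was already present in islets, at 43.6, 31.3, 21.9 and 21.9 FPKM, and reached 95.7, 85.2, 96.2 and 102 in grafts (log2 1.69, adjusted p = 0.000308). Genes of tissue-resident and repair-type macrophages included Retnla, from 0.37 to 0.827 up to 33.2, 114, 29.9 and 54.8 FPKM (log2 4.99), and Folr2 (2.77). The platelet and macrophage chemokine gene Pf4 rose by 4.26, the Fc receptor gene Fcgr3 by 3.31 and the pan-leukocyte gene Ptprc by 1.32.

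Mast cell protease genes were detected in every graft. All 7 mast cell and granulocyte genes that rose reached the filter through the grafts alone, and neither of the other 2 passed. Mcpt4 was listed at 0 in all islets and at 11.2, 10.2, 6.17 and 6.73 FPKM in grafts, Tpsb2 at 0 to 0.086 and then 6.29 to 11.7, and Cma1 at 0 to 0.093 and then 2.72 to 8.39. The neutrophil gene S100a8, listed at 0 in all islets, was uneven, at 219, 59.6, 26.3 and 3.88 FPKM in grafts 1 to 4, as was its partner S100a9 at 210, 78.1, 16 and 5.78. Graft 1 also held the most red cell RNA. The haemoglobin gene Hba-a1 was at 5.69 to 18.4 FPKM in islets and 8392, 1117, 1429 and 775 in grafts (log2 7.47, SE 0.768, adjusted p = 0.000755), and Hbb-b1 and Beta-s rose by 7.45 and 7.55.

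All 7 tested red cell genes rose, holding 4.7%, 0.622%, 0.817% and 0.409% of FPKM in grafts 1 to 4 and at most 0.0135% in islets. Globin genes have near-identical copies, so single-gene values are uncertain. The plasma haemoglobin scavenger gene Hp, also made by fat cells, was at 257, 32.6, 102 and 39.2 FPKM in grafts and 0.5 to 1.53 in islets (log2 5.39, adjusted p = 0.0006).

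Antigen presentation genes rose in 10 of 19 (52.6%) and 9 did not pass, while without islet 1, 10 rose and 4 fell. The class II gene H2-Aa went from 41.2 to 44.9 up to 159, 107, 121 and 170 FPKM (log2 1.64, adjusted p = 8.85e-05) and the peptide loading gene H2-DMa rose by 1.75. Of 24 chemokine and receptor genes 13 rose and 6 fell (54.2% and 25.0%). Of the 18 that reached the filter in both groups 8 rose and 5 fell. Among chemokines made by macrophages, Ccl8 was at 0 to 0.312 and then 128, 47.4, 57.6 and 30.9 FPKM (log2 5.77, adjusted p = 5.68e-06, in a gene that reached the filter through the grafts alone) and Ccl6 rose by 4.15. Of 3 inflammatory chemokines, all named after their values were seen, Cxcl10 was at 5 FPKM in islet 1, 56.8 to 74.1 in islets 2 to 4 and 0 to 3.77 in grafts (log2 -3.75, adjusted p = 0.0164), and the neutrophil attractant genes Cxcl1 (-1.93) and Cxcl2 (-1.78) fell too.

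**Figure D5:**
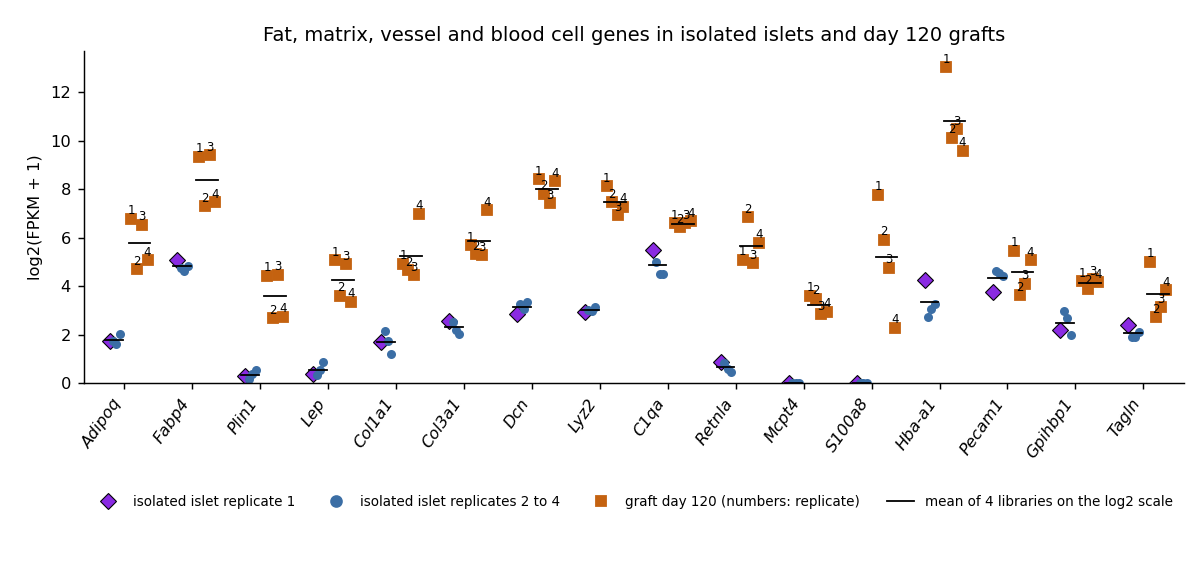
log2(FPKM + 1) of 16 fat, matrix, immune, blood and vessel genes in each library, with purple diamonds for isolated islet replicate 1, blue circles for replicates 2 to 4, orange squares for day 120 grafts with their replicate numbers and black bars for group means. Grafts 1 and 3 are highest at the fat genes Adipoq, Fabp4, Plin1 and Lep, graft 4 at Col1a1 (127 FPKM), and graft 1 at S100a8 (219) and Hba-a1 (8392).

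Y-linked genes were present in all 8 libraries. Eif2s3y went from 23.1 to 24.6 up to 26.4 to 41.3 FPKM (log2 0.49, adjusted p = 0.0268, and up to 0.0824 with a library left out) and Ddx3y from 20.8 to 30.2 down to 7.91 to 15.2 (log2 -1.07, adjusted p = 0.00349), so they did not move together.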

How the data were processed

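RNA was amplified from 10 ng with a SMARTer ultra low input kit and made into libraries with 15 PCR cycles, per the labels' protocols. The authors deposited 1 table of FPKM values for 12 libraries, made with TopHat2 and Cufflinks 2.1.1 on build mm9, per the submitters' processing notes. FPKM holds no counts, so depth and counting error are unknown. Within a group, 132 of all symbols changed between 0 and over 10 FPKM, with no value in between in the 8 libraries compared. Such jumps can mark failed estimates.

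From the table, log2(FPKM + 1) of 8 libraries was fitted with limma 3.58.1 in R 4.3.3 (trended, robust variances, statmod 1.5.0), with Benjamini-Hochberg adjustment over 12680 genes and a threshold of 0.05. Every adjusted p is from limma; fold changes on this scale understate the change of low genes. Both summed shares were tested by exact two-sided permutation. The script was tested on simulated data. Genes were named by rule: the 12 largest rises and falls without overlap, fixed key genes and up to 4 members with the smallest p of each list, 164 genes in all; 67 more were chosen after their values were seen. Some members of the lists are not reported here by name, though they are in the counts. The members and lists were chosen with earlier results of these data known. After group means were taken out, the deviations of same-numbered libraries correlated at -0.016, -0.048, -0.075 and -0.024. Other pairs ran from -0.133 to 0.097, so the numbers gave no sign of pairing. Alternatives were the pseudocount, filter, scaling, variance model, weights, all 12 libraries, a replicate block and each library left out. The 4 day 60 graft libraries entered only the fit of all 12. Figures were drawn with matplotlib 3.10.9.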

Additional observations from a re-analysis of the deposited data

Results flagged for a closer look

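Among the named genes, 53 of 459 groups of 4 libraries (11.5%) held a library whose gap to its nearest neighbour passed Dixon's critical value (95%) as a share of the group's range on log2(FPKM + 1), where chance gives about 1 in 20. That rate is no yardstick here: 67 of the 231 named genes were chosen after their values were seen, some of them because isolated islet replicate 1 stood alone, and a group with 3 libraries at 0 passes whatever the value of the last. The number of flags, and the 31 in isolated islet replicate 1, therefore describe this choice of genes. No cause was tested.

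Isolated islet replicate 1 stood highest of the islets at the stress genes Hspa1a (740 FPKM), Fosb (659), Fos (632), Egr1 (533), Dnajb1 (387), Bhlhe40 (41.8) and Klf2 (9.41). It was also highest at the beta cell and growth genes Nkx6-1 (93.2), Cdk4 (60.8), Mcm7 (4.76), Aldh1a3 (3.14) and Peg10 (2.23), and at the blood cell genes Beta-s (15.5), Hbb-b1 (10.9), S100a9 (0.287) and Cma1 (0.093). The same library stood lowest at the amino acid response genes Atf4 (278), Asns (44.8), Aars (25.1) and Trib3 (4.37), at the interferon genes Rsad2 (5.19), Cxcl10 (5.0) and Ifit1 (2.25), and at the proteasome and pump genes Atp6v1e1 (107), Psmd3 (35.4) and Psmd12 (28.7). Other low values of this library were Nr1d1 (51.1), Pgk1 (41.8), Fabp3 (12.6), Vgf (11.9) and Myc (8.32).

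In the other islets, replicate 2 was highest at Acta2 (18.1 FPKM), Cck (0.317) and Tpsb2 (0.086), replicate 3 at Ccl8 (0.312) and replicate 4 at Psma4 (53.0), with replicate 4 lowest at Pdgfra (0.092).

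Graft 1 was lowest of the grafts at Mlxipl (66.5 FPKM), Baiap3 (33.7), Gipr (23.1), Cry2 (17.8) and Fabp3 (14.2), and was the graft in which Reg1 was not listed at 0 (0.166). Graft 4 was highest at Mt2 (55.2), Jund (48.9), Csrnp1 (4.34), Npy (2.94), Sox9 (0.37) and Ctrb1 (0.133), and lowest at Hspa5 (483). Graft 2 was lowest at Krt18 (82.4), and graft 3 at Bag3 (8.07) and Dnajb1 (6.03).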

How the results depend on the processing

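Requiring 5 FPKM in 4 libraries left 3739 genes past the threshold, 2763 of them higher. Scaling to the sum without hormone and acinar genes gave 3001 higher and 2163 lower, scaling to endocrine reference genes 2278 and 2883, and quantile normalization 2644 and 2496. Array weights gave 2340 lower genes. With 1 library left out, the number past the threshold ran from 3825 to 7841, higher genes from 2959 to 5757 and lower genes from 772 to 2084. The fewest were called without islet 4 and the most without islet 1. The replicate block left 4999 genes past the threshold, although the numbers gave no sign of pairing the libraries. Of 209 named genes that passed, 166 passed with each library left out in turn and 43 did not, 2 of them (Sst and Igj) without isolated islet replicate 1. Among these 209, the fit of all 12 libraries ended 42 calls, scaling to endocrine reference genes 24, quantile normalization 15, scaling to the sum without hormone and acinar genes 13 and upper-quartile scaling 9. Under quantile normalization Ins1 changed by -0.00 and Sst by 0.04, the only changes of sign among the 209 named genes that passed. Genes that did not pass could also change sign, such as Chga, from -0.14 to as much as 0.51. The acinar share differed by -12.1 to -6.86 percentage points with 1 library left out. Without a graft its exact permutation p was 0.0857, while the difference stayed at -9.67. The hormone share differed by 2.48 to 4.69 points with 1 library left out. Unknown read depth leaves the precision of low FPKM values unknown.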
